A study of Mus musculus with 6 samples.

Results

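The genes described are 9 markers of GABA-releasing cells in mouse cerebral cortex, taken by symbol from the 32531 gene symbols that the count files list. They are the GABA synthesis genes Gad1 and Gad2, the vesicular GABA transporter gene Slc32a1, and the interneuron class markers Pvalb, Calb2, Reln, Htr3a, Erbb4 and Sncg. The choice was made by name, with earlier results of these data known. All 9 are in the files, and all 9 passed the filter on low counts that left 16506 genes for testing.

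All samples were cerebral cortex of adult mice carrying Htr4-EGFP/Rpl10a (line ES1299), in which the ribosomal protein Rpl10a carries an EGFP tag. The tag is made where the Htr4 transgene is active, and Htr4 encodes a serotonin receptor. RNA from cortical ribosomes captured through the tag, called IP (n = 3), was compared with the cortical RNA labelled input (n = 3). Both groups carry the transgene, no treatment was given, and the labels give neither sex, exact age nor the number of animals per library. A tag driven by a promoter marks every cell in which that promoter is active, and the series title names pyramidal neurons as its subject. The question here is how genes of a different class of neuron, the GABAergic interneurons, stood in that capture.

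Interneurons make GABA from glutamate with the enzymes GAD67, from Gad1, and GAD65, from Gad2, and load it into synaptic vesicles with the transporter VGAT, from Slc32a1. All GABAergic neurons share this machinery. The cortical classes differ in other genes: parvalbumin (Pvalb) marks fast-spiking basket and chandelier cells, calretinin (Calb2) marks a set of cells that often also contain vasoactive intestinal peptide, and the ionotropic serotonin receptor subunit gene Htr3a marks cells that arise in the caudal ganglionic eminence. Reelin (Reln), a secreted glycoprotein, marks neurogliaform and some somatostatin cells, as well as the Cajal-Retzius cells of layer 1. Gamma-synuclein (Sncg) labels a small class with cholecystokinin, and the neuregulin receptor gene Erbb4 is expressed widely across cortical interneurons. Gad1, Gad2 and Slc32a1 are also expressed by striatal projection neurons, which are GABAergic.

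The 9 genes did not move as a group. Calb2, Htr3a and Slc32a1 were higher in IP, Erbb4 was lower, and Gad1, Gad2, Pvalb, Reln and Sncg did not pass the test (the quasi-likelihood test of edgeR, with p adjusted by Benjamini-Hochberg over all 16506 genes and a threshold of 0.05). So 4 of 9 were called, where 44.8% of all tested genes were called. The 3 higher genes compare with 21.3% of all genes called higher, and the 1 lower gene with 23.4% called lower, so the number of calls was near the background in each direction. The median log2 fold change was 0.12 for the 9 genes and -0.02 for all tested genes. Groups did not overlap for 3 of the 9 genes, Calb2, Htr3a and Erbb4, against 56.1% of all tested genes.

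IP libraries held 53147173 to 67559533 reads on genes and input libraries 37696125 to 52360452. Htr4 itself averaged 19.9 ± 2.36 CPM in IP and 7.88 ± 0.265 CPM in input (CPM, read counts scaled to library size with TMM factors; SD, n = 3 each). Of 9 listed markers of cortical excitatory neurons 3 rose, 1 fell and 5 did not pass (median log2 fold change 0.23). Over all tested genes, 21.3% were called higher and 23.4% lower. With libraries scaled to pan-neuronal genes, 2 of the 9 excitatory markers rose and 3 fell, where 1004 of all 16506 tested genes rose and 6999 fell. Neurod6 rose by 1.22 and Nrgn by 0.74 on the log2 scale, Slc30a3 fell by 0.55, and the most abundant, Camk2a, had 3134 ± 677 CPM in IP and 2850 ± 186 CPM in input (adjusted p = 0.411 by edgeR). Of 20 pan-neuronal genes 15 rose and 2 fell, whereas all 6 astrocyte, all 8 oligodendrocyte-lineage and all 5 microglial markers fell. All 9 noncoding RNAs of a list of mainly nuclear transcripts fell too (median log2 fold change -4.24). In pooled RNA such as this, capture from fewer cells of a type and capture of less RNA per cell cannot be told apart.

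**Figure D1:**
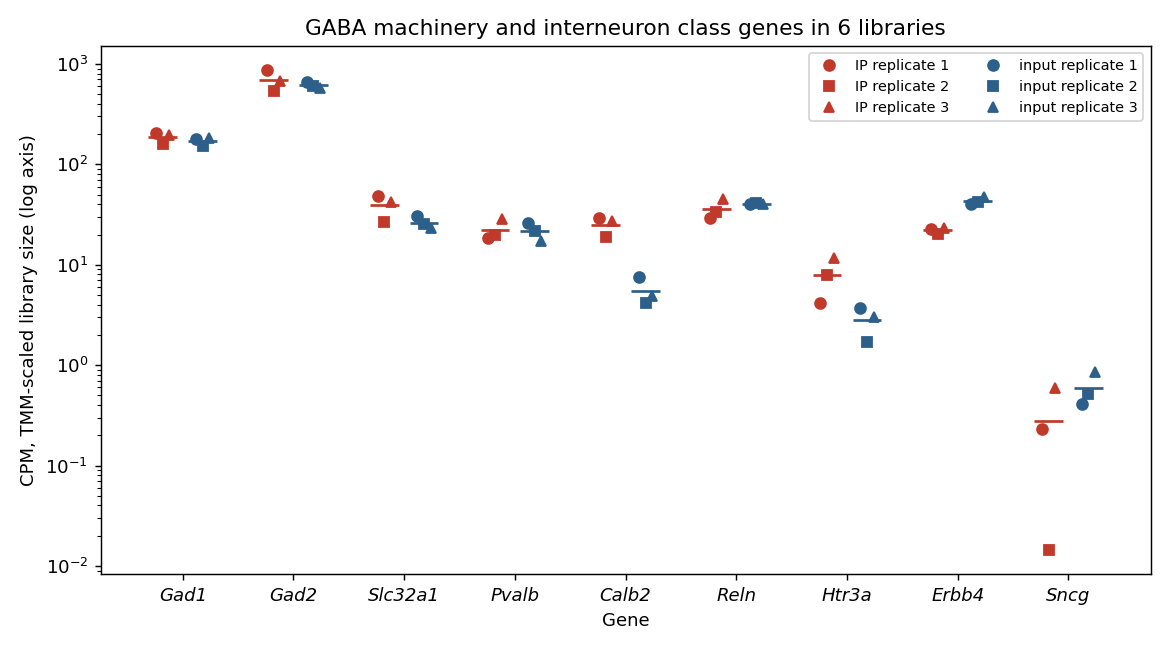
CPM of the 9 genes in each library on a log axis, with IP left of input, a marker shape per replicate and a bar at each group mean. Calb2, Htr3a and Erbb4 are the genes whose groups are apart, and Gad1 and Gad2 overlap.

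Stretches before the RefSeq start of 3 members are shown because the ratio of Gad1 to Gad2 did not differ beyond the spread of the libraries, while Erbb4 was the member that fell. They are from RefSeq (GRCm38.p6) and run 5′ to 3′, as the longest piece of the 250 bases before the RefSeq start that holds no exon annotated by GENCODE M21. GENCODE M21 starts Gad1 earlier, at 70553072, so the Gad1 stretch lies inside the gene as annotated there, between exons. Capitals mark a match to one of the motifs searched.
Gad1, chr2:70561879-70562041, plus strand: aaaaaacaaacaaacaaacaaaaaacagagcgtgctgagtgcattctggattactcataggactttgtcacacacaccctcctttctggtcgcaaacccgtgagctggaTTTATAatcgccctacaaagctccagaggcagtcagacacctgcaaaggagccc
Gad2, chr2:22622077-22622204, plus strand: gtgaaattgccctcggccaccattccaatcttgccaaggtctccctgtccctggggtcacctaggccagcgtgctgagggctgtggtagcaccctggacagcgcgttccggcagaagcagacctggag
Erbb4, chr1:69108060-69108309, minus strand: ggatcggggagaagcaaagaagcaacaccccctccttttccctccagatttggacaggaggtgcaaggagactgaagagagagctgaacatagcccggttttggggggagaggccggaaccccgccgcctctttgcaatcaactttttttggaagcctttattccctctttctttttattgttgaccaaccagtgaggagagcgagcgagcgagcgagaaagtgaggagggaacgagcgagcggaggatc

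Motifs were searched on both strands of the 250 bases before the start, in 32851 windows of the RefSeq table. The TATA box, searched as TATAAA, was in 12.4% of all windows. The GC box, searched as GGGCGG, was in 32.7%. A homeodomain core, searched as TAATTA, was in 4.84%. The E-box, searched as CACGTG, was in 6.02%. None of these overlaps another in letters printed above. The Gad1 window held a match to TATAAA on the opposite strand, 141 bases before the RefSeq start, where it reads TTTATA as capitalised. It also held a match to the GC box downstream of the stretch shown. Whether either match acts on Gad1 was not tested. The windows of Gad2, Slc32a1 and Erbb4 held none of the motifs. The Reln window was the richest in CpG among the members, with 37 against a median of 6 over all windows, and it held the GC box 6 times and the E-box. Of the remaining members, Sncg held a GC box, and neither Pvalb window held a motif. Calb2 and Htr3a were not matched in the table.

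Neither GABA synthesis gene passed the test. Gad1 had 207, 160 and 196 CPM in IP replicates 1 to 3, against 180, 154 and 184 CPM in input replicates 1 to 3. The groups overlapped, with replicate 2 the lowest in each. The log2 fold change was 0.12 (SE 0.11, 95% interval -0.13 to 0.37, adjusted p = 0.417 by edgeR), and it was 0.20, 0.06 and 0.09 within sequencing lanes 1, 2 and 3, each of which held 1 IP and 1 input library. The interval reached up to 0.37 and did not include a rise of the size seen for Htr4, at 1.34.

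Gad2 had 871, 542 and 683 CPM in IP, against 660, 601 and 571 CPM in input. The IP libraries spread 1.61-fold around the inputs, with IP replicate 2 below all inputs and the other IP libraries above them. The log2 fold change was 0.19 (SE 0.14, 95% interval -0.11 to 0.50, adjusted p = 0.29 by edgeR) and 0.40, -0.15 and 0.26 within lanes 1, 2 and 3. Without IP replicate 2 it was called higher (log2 fold change 0.35, adjusted p = 0.0244). Reads of Gad2 per read of Gad1, a ratio that no library scaling changes, were 4.21, 3.39 and 3.49 in IP and 3.67, 3.91 and 3.11 in input (two-sided exact permutation p = 0.8). Per kilobase of annotated exon, Gad2 was the most abundant of the 9 genes, with 119 ± 28.1 CPM per kb in IP and 104 ± 7.71 in input, and Gad1 was next with 24.6 ± 3.21 and 22.6 ± 2.14.

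Slc32a1, which loads GABA into vesicles, had 48.8, 26.9 and 42.5 CPM in IP, against 30.4, 25.4 and 23.2 CPM in input. IP replicates 1 and 3 lay above every input, while IP replicate 2 fell between input replicates 1 and 2. The gene was called higher (log2 fold change 0.58, SE 0.20, adjusted p = 0.031 by edgeR), with 0.69, 0.08 and 0.87 within lanes 1, 2 and 3. The call was lost without IP replicate 1 (adjusted p = 0.114), IP replicate 3 (adjusted p = 0.0652), input replicate 2 (adjusted p = 0.103) or input replicate 3 (adjusted p = 0.109). Reads per Gad1 read were 0.236, 0.168 and 0.217 in IP and 0.169, 0.165 and 0.126 in input, and the groups overlapped (two-sided exact permutation p = 0.2). The smallest p that 3 against 3 libraries allow is 0.1, so this test could not decide whether Slc32a1 differed from Gad1.

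Of 11 further genes that handle GABA, its precursors or its cofactor, 2 rose, 7 fell and 2 did not pass (median log2 fold change -0.78). For comparison, 21.3% of all tested genes were called higher and 23.4% lower. Slc6a13, a GABA transporter gene, had 0 to 0.0733 CPM in IP and 2.07 to 2.53 CPM in input, and its relative Slc6a12 had 0 to 0.043 CPM in IP and 0.358 to 0.845 CPM in input. The glutamine transporter gene Slc38a1 rose, with 341 ± 39.1 CPM in IP and 246 ± 15.5 in input (log2 fold change 0.47, adjusted p = 0.00239 by edgeR), and lost its call when libraries were scaled to pan-neuronal genes (adjusted p = 0.857). The astrocyte markers, all 6 of which fell, summed to 728 to 894 CPM in IP and 3616 to 4262 CPM in input. Slc6a11, the GABA transporter gene best known from astrocytes, fell with a log2 fold change of -1.37, and Glul, the astrocytic glutamine synthetase gene, with -2.39. The part of astrocyte RNA in the falls of Slc6a11 and Glul was not tested.

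**Figure D2:**
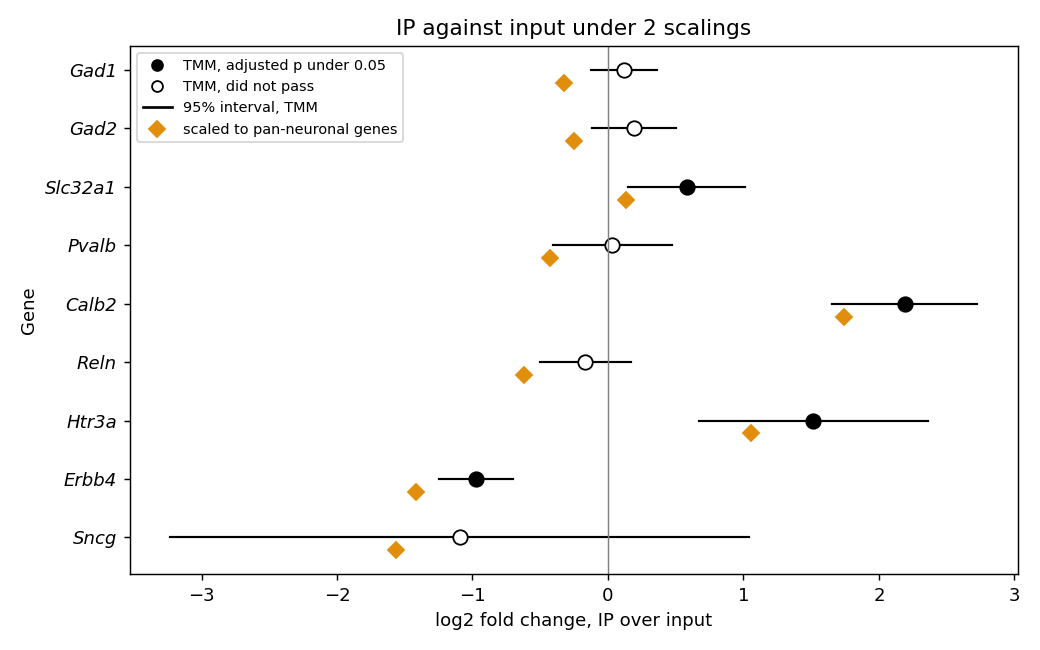
Log2 fold change of IP over input for each gene, with circles for TMM scaling, bars for its 95% interval, filled circles for an adjusted p under 0.05, and diamonds for libraries scaled to 20 pan-neuronal genes. Calb2 and Htr3a lie right of 0 and Erbb4 left of 0 under both scalings, while Gad1, Gad2 and Pvalb change side.

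Of the calcium-binding class markers, calretinin rose and parvalbumin did not pass. Calb2 had 29.4, 18.9 and 27.1 CPM in IP, against 7.55, 4.2 and 4.83 CPM in input. The lowest IP library stood above the highest input, and IP replicate 2 was the lowest of the IP libraries. Calb2 was 4.57-fold higher in IP (log2 fold change 2.19, SE 0.25, adjusted p = 3.12e-05 by edgeR), with 1.96, 2.17 and 2.49 within lanes 1, 2 and 3. Only 0.576% of all tested genes had a larger log2 fold change. It was called under all 15 alternatives, where its log2 fold change ran from 1.74 to 2.49.

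Pvalb had 18.3, 19.9 and 28.6 CPM in IP, against 26.3, 21.8 and 17.3 CPM in input. The groups overlapped over most of their range, and the means were 22.3 ± 5.52 CPM in IP and 21.8 ± 4.54 CPM in input (SD, n = 3 each). The log2 fold change was 0.03 (SE 0.20, 95% interval -0.41 to 0.47, adjusted p = 0.915 by edgeR), and -0.52, -0.13 and 0.73 within lanes 1, 2 and 3. Pvalb changes within that interval were compatible with these libraries, and the interval lay below the whole interval of Calb2, 1.65 to 2.73.

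Against Gad1 the markers parted in the same way. Calb2 had 0.142, 0.118 and 0.138 reads per Gad1 read in IP and 0.0419, 0.0273 and 0.0263 in input, with no overlap (log2 difference 2.09). Pvalb had 0.0886, 0.124 and 0.146 reads per Gad1 read in IP and 0.146, 0.142 and 0.0938 in input (log2 difference -0.09, two-sided exact permutation p = 0.6). The exact permutation p for Calb2 was 0.1, the smallest that 3 against 3 libraries allow, and 0.32 adjusted over the 8 ratios computed. Per kilobase of exon, Calb2 ranked 4 of the 9 genes in IP, at 14.4 ± 3.16 CPM per kb, close to Slc32a1 at 14.1 ± 4.03, and was below Slc32a1 in input, at 3.17 ± 1.02 against 9.41 ± 1.31.

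Genes associated with fast-spiking parvalbumin cells were mixed, with 3 rising, 3 falling and 3 not passing of 9 (median log2 fold change -0.21). Over all tested genes, 21.3% were called higher and 23.4% lower. The release regulator gene Cplx1 rose 1.24 on the log2 scale, to 1165, 1233 and 1502 CPM in IP against 548, 549 and 554 CPM in input, and Pthlh, a parathyroid hormone-like peptide gene, rose by 1.17 and lost its call with pan-neuronal scaling (adjusted p = 0.0585). Hapln1, which links the perineuronal net, fell to 7.26 ± 2.54 CPM in IP, against 33.4 ± 3.64 CPM in input. When libraries were scaled to pan-neuronal genes, 1 of the list rose and 5 fell. That scaling called 1004 of all 16506 tested genes higher and 6999 lower.

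**Figure D3:**
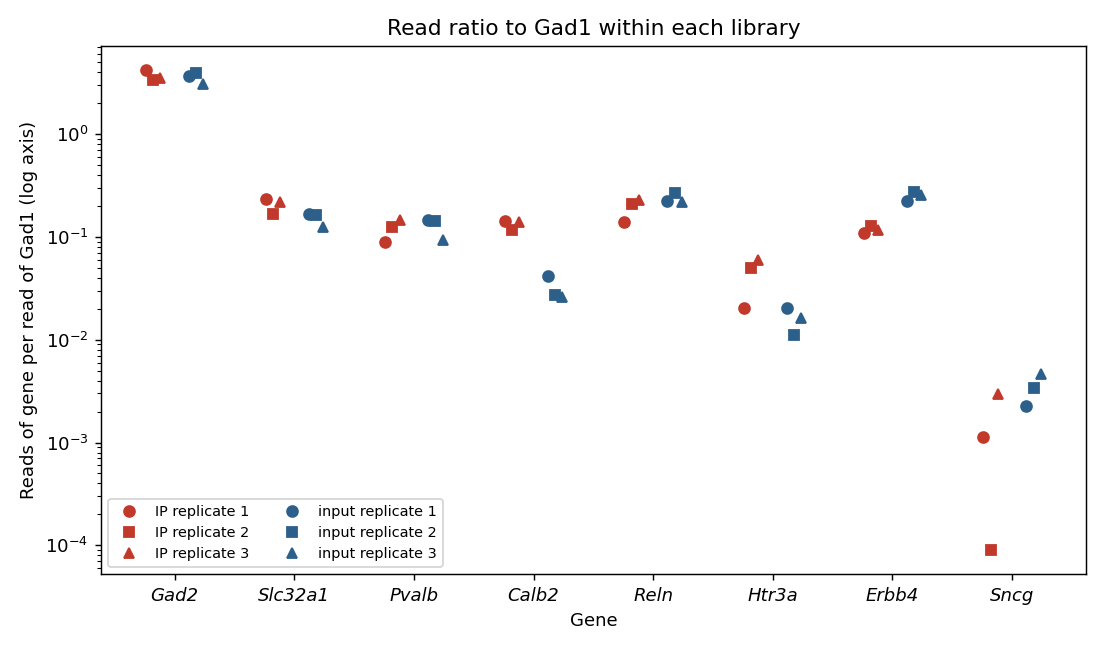
Reads of each gene per read of Gad1 within each library on a log axis, with IP left of input. Calb2 is above its inputs in all 3 IP libraries, Erbb4 is below them in all 3, and Gad2 and Pvalb overlap.

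The receptor genes moved in opposite directions. Htr3a had 4.2, 7.99 and 11.7 CPM in IP, against 3.68, 1.71 and 3.01 CPM in input. All IP libraries lay above all inputs, but IP replicate 1 exceeded input replicate 1 only slightly. Htr3a was 2.86-fold higher in IP (log2 fold change 1.52, SE 0.39, adjusted p = 0.00738 by edgeR), with 0.19, 2.22 and 1.96 within lanes 1, 2 and 3. The call held under all 15 alternatives, with an adjusted p of up to 0.0452 and a log2 fold change between 1.03 and 1.83. Reads per Gad1 read were 0.0203, 0.0499 and 0.0599 in IP and 0.0204, 0.0111 and 0.0164 in input, and these overlapped through replicate 1 (two-sided exact permutation p = 0.2). Htr3b, whose product joins that of Htr3a in heteromeric receptors, had at most 0.0586 CPM in any library and was not tested.

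Erbb4, the receptor tyrosine kinase gene, had 22.6, 20.4 and 23 CPM in IP, against 40.2, 42 and 47.4 CPM in input. The IP values were the tightest of all members, spreading 1.13-fold, and all lay below the inputs. IP stood at 0.509 times the input level (log2 fold change -0.97, SE 0.12, adjusted p = 7.95e-05 by edgeR), with -0.83, -1.04 and -1.04 within lanes 1, 2 and 3. It was called lower under all 15 alternatives (log2 fold change -1.42 to -0.88). Reads per Gad1 read were 0.109, 0.127 and 0.117 in IP and 0.223, 0.273 and 0.257 in input, with no overlap (log2 difference -1.09, exact permutation p = 0.1, the smallest possible). Erbb4 is on chromosome 1 at 68032186 to 69108059 on the minus strand (GRCm38, GENCODE M21), a span of 1075874 bases, with 12355 bases of annotated exon. Of 1410 tested genes with at least 10 kb of exon, 43.1% were called lower and 10.5% higher, against 20.8% and 23.2% of the 14469 tested genes with a matched length. Reln, with 23738 bases of exon, is also in that class. The part of transcript length in the fall of Erbb4 was not tested.

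Among 10 genes of other ErbB receptors, ligands and an ErbB4 scaffold, 4 fell and 6 did not pass (median log2 fold change -0.54). For comparison, 23.4% of all tested genes were called lower and 21.3% higher. Erbb3, known from the oligodendrocyte lineage, had 0.0718, 0.043 and 0.0586 CPM in IP and 0.49, 1.43 and 1.7 CPM in input, and Erbb2, the shared co-receptor gene, had 0.0866 ± 0.0244 CPM in IP and 0.558 ± 0.255 in input. The neuregulin gene Nrg3 fell with a log2 fold change of -0.35 (adjusted p = 0.0195 by edgeR) and Hbegf, an ErbB ligand gene, with -1.03 (adjusted p = 0.0168). Nrg1 had 13.3 ± 1.67 CPM in IP and 13.3 ± 0.361 in input (adjusted p = 0.999). The scaffold gene Dlg4, the most abundant, had 342 ± 32.8 CPM in IP and 373 ± 5.69 in input (adjusted p = 0.27). Without IP replicate 1, input replicate 1 or input replicate 3, 2 of the 10 were called lower. The oligodendrocyte-lineage markers, which all fell, summed to 156 to 181 CPM in IP and 1254 to 1369 CPM in input.

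Reln did not pass. It had 28.9, 33.4 and 45.2 CPM in IP, against 39.9, 40.9 and 40 CPM in input. IP replicates 1 and 2 lay below all inputs and IP replicate 3 above them, while the inputs agreed within 1.03-fold. The log2 fold change was -0.17 (SE 0.15, 95% interval -0.50 to 0.17, adjusted p = 0.411 by edgeR), with -0.46, -0.29 and 0.18 within lanes 1, 2 and 3. Without IP replicate 3 it was called lower (log2 fold change -0.36, adjusted p = 0.0423). Of 9 genes of the reelin receptors and their relay, 2 rose, 2 fell and 5 did not pass (median log2 fold change 0.01). Both counts were near the shares over all tested genes, 21.3% called higher and 23.4% called lower. The receptor genes were those that fell: Lrp8, encoding the apolipoprotein E receptor 2, had 54.9 ± 5.66 CPM in IP and 111 ± 5.2 in input (log2 fold change -1.02, adjusted p = 1.67e-05 by edgeR), and Vldlr had 46.2 ± 2.05 CPM in IP and 72.6 ± 2.28 in input (log2 fold change -0.65). The kinase gene Fyn rose by 0.52 on the log2 scale and lost its call when scaled to pan-neuronal genes (adjusted p = 0.58). Pafah1b1, a dynein regulator gene and the most abundant of the list, had 735 ± 20.9 CPM in IP and 718 ± 73.8 in input (adjusted p = 0.785). Scaled to pan-neuronal genes, 0 of the 9 were called higher and 6 lower. Under that scaling 1004 of all 16506 tested genes were called higher and 6999 lower.

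Reln also marks Cajal-Retzius cells, and the 5 markers listed for them were nearly absent. They summed to 0.264 to 1.35 CPM in IP and 1.93 to 3.5 CPM in input. Only Trp73 and Ebf3 had enough reads for the test. Ebf3 was lower, with 0 to 0.538 CPM in IP and 1.11 to 2.68 CPM in input, the call was lost without input replicate 1 or input replicate 3, Lhx1 had no reads in IP, and Trp73 had 0.245 ± 0.256 CPM in IP and 0.383 ± 0.353 in input.

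Sncg was at the edge of detection. It had 13, 1 and 40 reads in IP replicates 1 to 3, against 15, 26 and 42 reads in input, or 0.233, 0.0143 and 0.586 CPM in IP and 0.409, 0.517 and 0.86 CPM in input. IP replicate 2, with 1 read, was below the floor of 3 reads, and the groups overlapped. The log2 fold change was -1.10 (SE 0.98, 95% interval -3.23 to 1.04, adjusted p = 0.392 by edgeR), an interval that includes changes in either direction, and it was -0.53 without IP replicate 2. Within lanes 1, 2 and 3 it was -0.81, -5.17 and -0.55, and lane 2 rests on that single read. The related gene Sncb, encoding beta-synuclein, had 186 ± 26.9 CPM in IP and 75.8 ± 5.88 in input (log2 fold change 1.29, adjusted p = 6.71e-06 by edgeR).

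**Figure D4:**
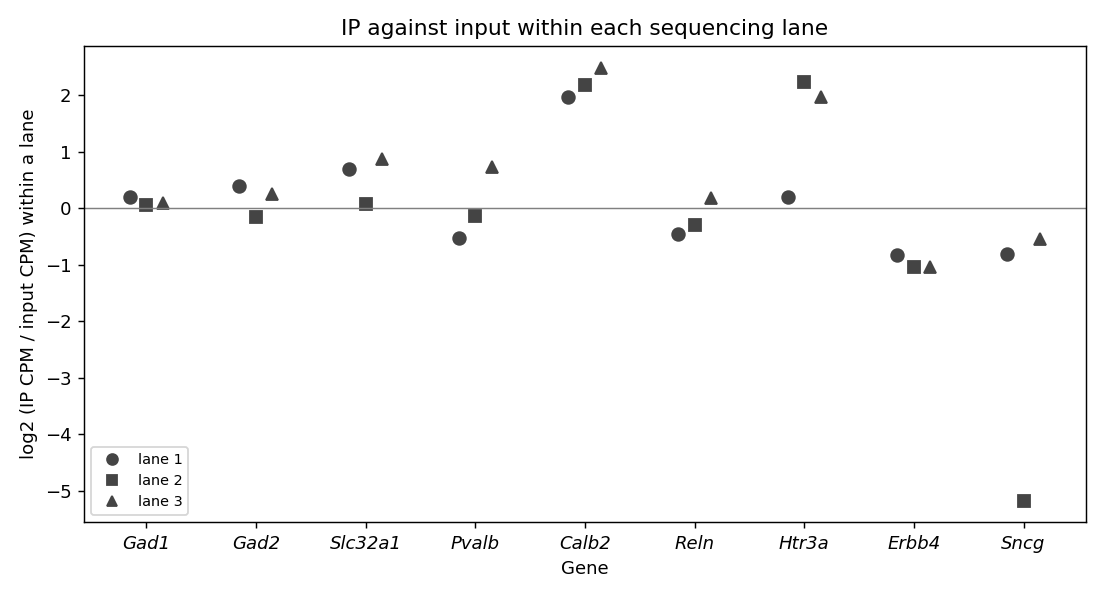
Log2 ratio of IP to input CPM within each of the 3 sequencing lanes, with a marker shape per lane. Calb2 is above 0 and Erbb4 below 0 by at least 0.83 in every lane, Htr3a is near 0 in lane 1 only, and Pvalb, Reln and Gad2 change sign between lanes.

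The IP libraries did not rank alike for all members. The GABA machinery genes Gad1, Gad2 and Slc32a1, and the class marker Calb2, were highest in IP replicate 1 and lowest in IP replicate 2. Erbb4 and Sncg were also lowest in IP replicate 2, but highest in IP replicate 3. Pvalb, Reln and Htr3a were lowest in IP replicate 1 and highest in IP replicate 3. The range among IP libraries was 1.29-fold for Gad1, 1.61-fold for Gad2, 1.81-fold for Slc32a1, 1.56-fold for Pvalb and 2.79-fold for Htr3a. Among inputs these genes ranged 1.2-, 1.16-, 1.31-, 1.53- and 2.15-fold. Reln ranged 1.57-fold in IP and 1.03-fold in input, and Sncg, with few reads, 40.9-fold and 2.1-fold. Calb2 and Erbb4 had the narrower range in IP, at 1.55- and 1.13-fold against 1.8- and 1.18-fold in input. Whether separate animals lie behind these libraries is not given in the labels.

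Of 19 tested markers of other interneuron classes 7 rose, 1 fell and 11 did not pass (median log2 fold change 0.40), where 21.3% of all tested genes were called higher and 23.4% lower. Scaled to pan-neuronal genes, 6 of the 19 were called higher and 5 lower, against 1004 and 6999 of all 16506 tested genes. Vip, the peptide gene often co-expressed with calretinin, had 103, 94.8 and 180 CPM in IP and 12.9, 11.3 and 13.1 CPM in input. Its groups were far apart (log2 fold change 3.34, adjusted p = 6.94e-07 by edgeR). The tachykinin gene Tac1 rose by 2.69 on the log2 scale, with 207, 90 and 106 CPM in IP and 27.2, 19.5 and 15.8 CPM in input. The most abundant gene of the list, cholecystokinin (Cck), rose with 409, 481 and 536 CPM in IP and 325, 310 and 352 CPM in input, and lost its call when scaled to pan-neuronal genes (adjusted p = 0.481). The part of excitatory neuron RNA in the level of Cck was not tested. The cannabinoid receptor gene Cnr1, a marker of cholecystokinin basket cells, fell to 190 ± 22.4 CPM in IP, against 278 ± 12.2 CPM in input. Sst, the somatostatin gene, was chosen after its values were seen: it had 428, 313 and 475 CPM in IP and 155, 130 and 148 CPM in input (log2 fold change 1.49, adjusted p = 8.74e-06 by edgeR). The rise of Sst is that of 1 gene. Of the same list, Crhbp (log2 fold change 0.40), Cort (0.31), Chodl (0.82), Npy (-0.16) and Nos1 (-0.02) did not pass.

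Of 15 interneuron transcription factor genes 5 rose, 1 fell and 9 did not pass (median log2 fold change 0.79). The shares over all tested genes were 21.3% called higher and 23.4% called lower. Prox1, a regulator of caudal ganglionic eminence interneurons that also marks dentate granule cells, had 78.2, 192 and 69.3 CPM in IP and 39.6, 49.7 and 29.5 CPM in input. All IP libraries were above the inputs, and IP replicate 2 stood highest. Dlx5, a gene of GABAergic development, rose to 18.6, 9.72 and 16 CPM in IP, against 5.83, 5.92 and 5.06 CPM in input. Sox6, which is needed for parvalbumin and somatostatin cells, fell to 15.8 ± 5.18 CPM in IP, against 60.8 ± 5.98 CPM in input (log2 fold change -1.95, adjusted p = 1.69e-05 by edgeR). The oligodendrocyte-lineage markers, with those of precursors, all fell as well. The part of oligodendrocyte-lineage RNA in the fall of Sox6 was not tested. Satb1, the most abundant, had 432 ± 39.5 CPM in IP and 356 ± 23 in input (log2 fold change 0.28, adjusted p = 0.0259 by edgeR), and its sign turned negative with pan-neuronal scaling. Under that scaling 2 of the list rose and 3 fell, against 1004 and 6999 of all 16506 tested genes. Without input replicate 2, 3 of the list rose, and without IP replicate 3, 2 of the list fell.

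**Figure D5:**
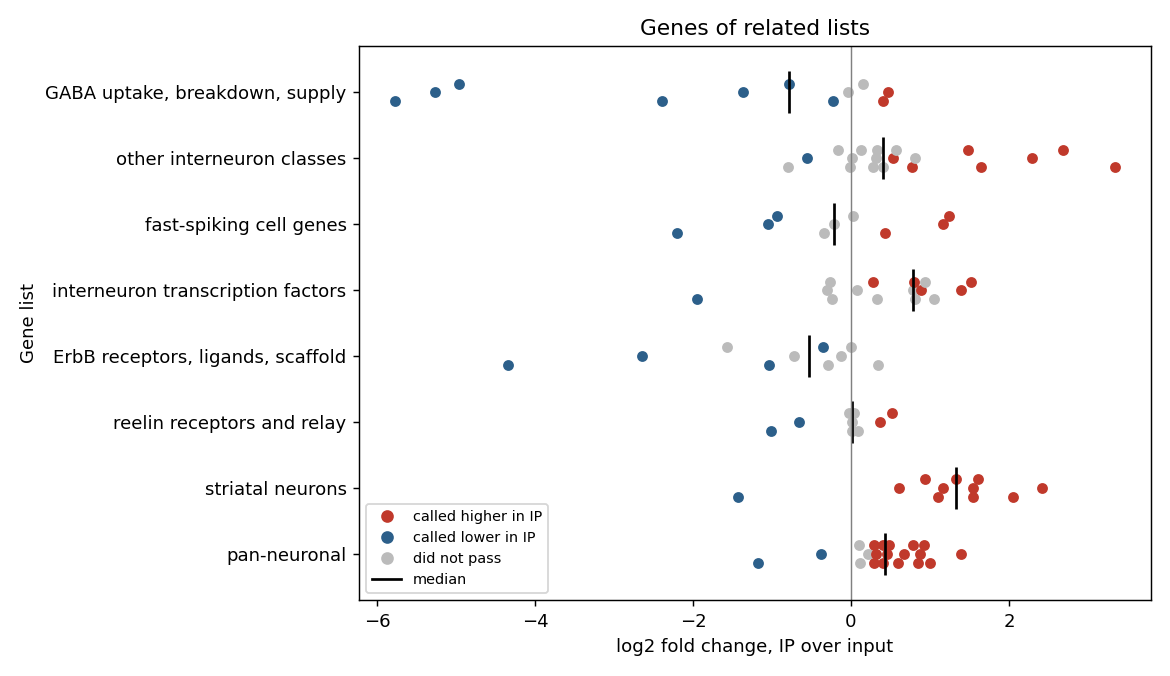
Log2 fold change of IP over input for each tested gene of 8 related lists, coloured by call, with a bar at each list's median. Striatal genes lie mostly right of 0 (median 1.33), other interneuron classes around a median of 0.40 and genes of GABA uptake, breakdown and supply around -0.78.

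Markers of other GABAergic or calretinin-containing cells moved too. Of 11 markers of striatal projection neurons 10 rose and 1 fell (median log2 fold change 1.33). Over all tested genes, 21.3% were called higher and 23.4% lower. The striatal markers summed to 847 to 1041 CPM in IP and 436 to 512 CPM in input. The adenosine receptor gene Adora2a had 25.6, 23.9 and 34.8 CPM in IP and 7.11, 4.75 and 3.95 CPM in input, and Drd2, a dopamine receptor gene, rose by 2.05 on the log2 scale. Pde10a, the most abundant, had 367 ± 23.2 CPM in IP and 192 ± 11 in input, and Rgs9 fell to 26.1 ± 5.17 CPM in IP, against 70.2 ± 14.35 CPM in input. None of the 11 was at 0 in any library.

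Of 7 thalamic markers 3 rose and 3 fell, against 21.3% called higher and 23.4% called lower over all tested genes. Their summed levels were 146 to 189 CPM in IP and 73.6 to 79.9 CPM in input. The glutamate transporter gene Slc17a6 accounted for most of this, at 104, 122 and 149 CPM in IP and 35.9, 32.4 and 34.8 CPM in input. Tnnt1, a troponin gene, rose to 17.2, 9.21 and 19.3 CPM in IP, against 2.02, 0.537 and 0.819 CPM in input, while Tcf7l2, a defining thalamic transcription factor gene, fell to 6.7 ± 3.78 CPM in IP, against 18.4 ± 1.41 CPM in input. Plekhg1 fell the most of the list, to 2.04 ± 1.28 CPM in IP, against 13.1 ± 0.966 CPM in input. Among 5 olfactory bulb markers Th rose, with 1.69, 3.07 and 6.07 CPM in IP and 1.09, 0.656 and 0.86 CPM in input, the most abundant, Cdhr1, had 6.78 ± 0.766 CPM in IP and 5.79 ± 0.461 in input (adjusted p = 0.42 by edgeR), and Eomes and Tbx21 had 0 CPM in at least 1 IP library. The part of striatal, thalamic or olfactory bulb RNA in the levels of Gad1, Gad2, Slc32a1, Calb2, Tac1 and Dlx5 was not tested.

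Because glial RNA was lower in IP, the libraries were also scaled to the 20 pan-neuronal genes, which shifted the median log2 fold change of all genes by -0.44. Calb2 (log2 fold change 1.74, adjusted p = 0.000168 by edgeR), Htr3a (1.05, adjusted p = 0.0394) and Erbb4 (-1.42, adjusted p = 3.36e-06) kept their calls. The call of Slc32a1 ended (0.13, adjusted p = 0.618), Reln was called lower (-0.62, adjusted p = 0.00403), and Gad1 turned negative and was called lower (-0.33, adjusted p = 0.031). Gad2 (-0.25, adjusted p = 0.186) and Pvalb (-0.43, adjusted p = 0.0964) turned negative without a call.

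The genes with the most similar profiles were sought for each member among up to 9674 tested genes with a mean of at least 5 CPM, by the Euclidean distance between log2 CPM profiles over the 6 libraries, each centred on its mean. The nearest to Gad1 were Fam126a (distance 0.05) and Ruvbl2 (0.08), to Gad2 Gprasp2 (0.12) and Gstz1 (0.16), and to Slc32a1 Creld2 (0.12) and Gtf2f2 (0.19). Calb2 was nearest to the serotonin receptor gene Htr2c (0.48) and the thyrotropin-releasing hormone receptor gene Trhr (0.50), Htr3a to Nxph3 (0.71) and Ntsr1 (0.84), and Erbb4 to Sestd1 (0.09) and Slc25a37 (0.11). Among the nearest to Pvalb was Rbp4 (0.18), and Reln was nearest to Anxa5 (0.12) and Tmem129 (0.16). Sncg had no close neighbour, with Filip1l at 2.76 and Spaca6 also at 2.76. No other member of the 9 was among the 2 nearest of any member.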

How the data were processed

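RNA was sequenced from 3 IP and 3 input libraries of cortex. Each deposited file lists raw read counts by gene symbol. Per the submitters' processing notes, the authors used STAR 2.0.0e, HTSeq and build mm10. For HTSeq, neither settings nor annotation is given in the sources used here. No exon of the 9 genes overlaps another listed gene in GENCODE M21, which also gave exon lengths.

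Reads outside genes (8.60% to 8.92% of listed reads in IP, 16.7% to 18.05% in input), in several genes (1.77% to 1.91%, 8.12% to 9.83%) or at several places (32.9% to 35.7%, 21.05% to 23.3%) were left out with the row unknown (at most 2 reads). Counts were tested with edgeR 4.0.16 (R 4.3.3): TMM, filterByExpr, quasi-likelihood test, group term, Benjamini-Hochberg, two-sided. Standard errors come from the test statistic. CPM uses TMM-scaled library sizes. The floor of 3 reads lies between 0.0444 and 0.0796 CPM and covers counting error only. The test was tried on simulated data. Alternatives included DESeq2 1.42.0 and limma-voom (limma 3.58.1).

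Members and lists were chosen with earlier results of these data known. Named are the members and, from each list, the 2 called genes of largest change in the direction of most calls, the called gene of largest opposite change, the most abundant gene, and called direct partners. Some genes that this rule takes are not reported here. Genes of cell types named beside a result were chosen after their values were seen where this rule does not take them. They are Slc6a11, Glul, Tcf7l2, Trp73, Lhx1, Sst, Crhbp, Cort, Chodl, Npy, Nos1, Eomes, Tbx21 and Nrg1. Replicate numbers match sequencing lanes in the labels. Deviations of same-numbered libraries correlated at 0.0689, 0.036 and 0.0162, against -0.057 to 0.0243 otherwise. No 2 libraries of a group were copies (chi-square per degree of freedom 23.2 to 68.8). Nothing says that replicates are separate animals, so p-values measure only the spread between these libraries. All IP libraries share an index and all inputs another, so index and group cannot be told apart.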

Additional observations from a re-analysis of the deposited data

How the results depend on the processing

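Calb2, Htr3a and Erbb4 kept direction and call under all 15 alternatives. Scaling to pan-neuronal genes called 1004 genes higher and 6999 lower (1094 and 7212 with the replicate block, a combination chosen after seeing the data), where TMM called 3523 and 3864, and called 3 members lower (4 with the block). It gave log2 fold changes of -0.33 for Gad1, -0.25 for Gad2, 0.13 for Slc32a1, -0.43 for Pvalb and -0.62 for Reln, and with the block -0.33, -0.28, 0.10, -0.42 and -0.64; the cause was not tested. With the block Gad2 was called lower (adjusted p = 0.0388). Pvalb turned to -0.017 when genes had to reach 1 CPM in 3 libraries, and Sncg was then not tested. Under TMM, the replicate block changed no call of a member; its adjusted p for Slc32a1 was 0.0144.

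Leaving out each library gave log2 fold changes of 0.41 to 0.80 for Slc32a1, 0.012 to 0.35 for Gad2, -0.18 to 0.21 for Pvalb, -0.36 to -0.026 for Reln and -2.27 to -0.53 for Sncg, and 1 to 2 members called lower. Without IP replicate 3 and without input replicate 3, Pvalb stood at -0.18 and -0.10. The log2 difference of the ratio to Gad1 ran from -0.044 to 0.12 for Gad2 (-0.044 without IP replicate 1 and -0.041 without input replicate 3) and from -0.30 to 0.11 for Pvalb (0.11 without IP replicate 1 and 0.023 without input replicate 1). For the other lists, 696 of 809 values under the alternatives stayed close to the main ones, and 113 moved. Depth limits Sncg, with 1 to 42 reads per library.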
